A study of Mus musculus with 6 samples.

Results

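M-opsin cones, the cone photoreceptors that carried at least as much medium-wave as short-wave opsin RNA, made up 315 of the 46375 cells in single-cell RNA sequencing of mouse retina. Members were selected on measured UMIs (unique molecular identifiers, the counted RNA molecules): a cell that the authors typed as photoreceptor was a cone if at least 3 of the 6 genes Opn1mw, Opn1sw, Arr3, Gnat2, Pde6h and Pde6c had a UMI and the 6 together made at least 1% of its UMIs, and a cone was an M-opsin cone if its Opn1mw UMIs equalled or exceeded its Opn1sw UMIs. Of 42359 photoreceptors, 926 were cones, and the other 611 cones, with more Opn1sw than Opn1mw, are called S-opsin cones. Rods were the 41296 photoreceptors outside the cones with a UMI of at least 3 of 16 rod genes, which left 137 photoreceptors in no class. The retinas came from male C57BL/6J mice aged 12 months, 3 Dram2 wt/wt and 3 Dram2 ko/ko, the latter carrying a germline CRISPR deletion around exon 4 of Dram2 in every cell type. wt/wt replicates 1, 2 and 3 gave 48, 50 and 84 M-opsin cones, and ko/ko replicates 1, 2 and 3 gave 23, 58 and 52. Replicate 3 of each genotype belongs to batch 1 and the other 4 retinas to batch 2. The sources do not say that each library came from a separate mouse, so the p-values below measure the spread between libraries. Where classes are compared with the retina as a block, this is the spread of the class difference within a retina.

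Cones serve daylight and colour vision. In the mouse, most cones can make both opsins, with medium-wave opsin dominant in the dorsal retina and short-wave opsin in the ventral retina, while a small population makes short-wave opsin alone. Light-activated opsin drives the cone transducin, whose alpha subunit is Gnat2, to switch on the cone phosphodiesterase (Pde6c with its inhibitory subunit Pde6h), and cone arrestin Arr3 ends the opsin signal. Thyroid hormone receptor beta (Thrb) and its nuclear receptor partner Rxrg are known regulators of opsin choice, and COUP-type nuclear receptors such as Nr2f2 and the homeobox factor Vax2 are associated with the dorsal and ventral retina. Dram2 encodes a membrane protein of lysosomes, and loss of its human counterpart causes a cone-rod dystrophy.

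The 2 opsin genes whose UMIs split the cones are Opn1mw on chromosome X and Opn1sw on chromosome 6, and the sequence just upstream of each is shown because the UMIs of these genes define both classes. The windows are the 250 bases before the RefSeq start in GRCm38.p6, written 5′ to 3′ on the gene's strand. Capitals mark matches to the nuclear receptor half-site AGGTCA or its reverse complement TGACCT.
Opn1mw, chrX:74127216-74127465, plus strand: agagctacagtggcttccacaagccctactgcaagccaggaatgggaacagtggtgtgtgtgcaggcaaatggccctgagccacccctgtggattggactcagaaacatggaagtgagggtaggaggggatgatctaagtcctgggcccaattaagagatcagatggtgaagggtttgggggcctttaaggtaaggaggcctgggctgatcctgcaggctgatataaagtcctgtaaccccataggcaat
Opn1sw, chr6:29380514-29380763, minus strand: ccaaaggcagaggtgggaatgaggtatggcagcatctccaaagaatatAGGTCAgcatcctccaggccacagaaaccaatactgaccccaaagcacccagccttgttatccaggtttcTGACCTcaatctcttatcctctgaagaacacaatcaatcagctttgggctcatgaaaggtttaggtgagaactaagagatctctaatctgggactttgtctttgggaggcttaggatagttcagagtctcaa
The Opn1sw window held 2 half-site matches, beginning 202 and 132 bases before the start, and the Opn1mw window held 0. A match on either strand occurred in 14% of the 32851 RefSeq windows of the same length. Neither window held TAATCC or its reverse complement GGATTA, the letters of a site for the photoreceptor factor CRX, which 6.25% of windows held. A match describes letters only.

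Opn1mw was present in 312 of the 315 M-opsin cones, with a median of 13 UMIs per cell, and 206 of them (65.4%) held Opn1mw and no Opn1sw UMI. Another 106 held both opsins, 8 of these with equal numbers, and 3 held neither and entered through the other 4 genes. The S-opsin cones were less one-sided: 425 of 611 also held Opn1mw, and the median over all 611 was 3 Opn1mw UMIs beside 49 of Opn1sw. These values were used to choose the members and carry no test. In the plot of opsin UMIs per cone the M-opsin cones lie along the left edge, with few Opn1sw UMIs, and the S-opsin cones spread over a wide range of Opn1mw.

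**Figure D1:**
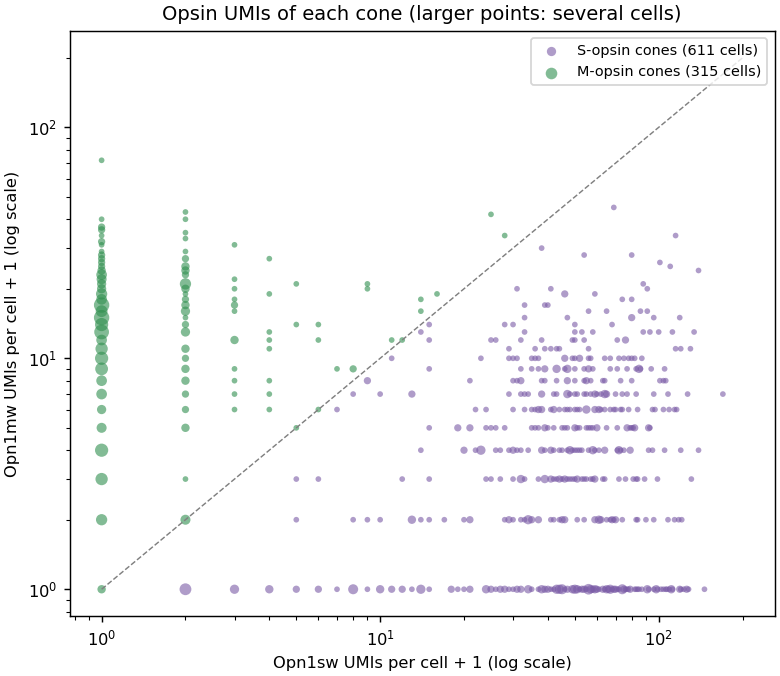
Opn1mw UMIs (vertical) against Opn1sw UMIs (horizontal) of each of the 926 cones, both plus 1 on log axes, with M-opsin cones in green, S-opsin cones in purple and the line of equal numbers dashed. Of the 315 M-opsin cones, 206 hold Opn1mw and no Opn1sw UMI, while 425 of the 611 S-opsin cones hold at least 1 Opn1mw UMI.

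Background RNA released from other cells was the measure against which co-detection had to be read. After thinning every cell to 500 UMIs, which left out 14 M-opsin and 43 S-opsin cones with fewer, Opn1sw was detected in 14.2% of M-opsin cones (33.7% unthinned), against 7.59% of rods, 7.64% of interneurons and 6.27% of glia. Opn1mw was detected in 52.4% of S-opsin cones after thinning (69.6% unthinned), against 2.16% of rods, 2.66% of interneurons and 2.13% of glia. The median depth was 1883 UMIs in M-opsin cones, 1866 in S-opsin cones, 1844 in interneurons, 1683 in glia and 422 in rods, and 25496 rods fell under 500 UMIs. Both genes belong to the rule, which bounds Opn1sw in M-opsin cones and keeps cells rich in either opsin out of the rods, so these shares are a description.

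The opsin cut had more cells near it than the other thresholds. Among photoreceptors with Opn1mw at or above Opn1sw and 3 or more of the genes, 2 held 1.0 to 1.5% of their UMIs in them and were inside, and 15 held 0.5 to 1.0% and were outside. Another 12 members had exactly 3 genes, while 42 cells with 2 genes and at least 1% were outside, at a median of 170.5 UMIs. Of all cones, 68 had an excess of 0 to 5 Opn1mw UMIs and were inside, and 31 had a shortfall of 1 to 5 and were outside.

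The defining markers were present in the M-opsin cones of all 6 retinas. Opn1mw was at 7204, 7299 and 5975 counts per 1000000 UMIs (CPM) in wt/wt replicates 1 to 3 and at 7889, 7058 and 8527 CPM in ko/ko replicates 1 to 3. Arr3 ranged from 9284 to 15400 CPM and Gnat2 from 3827 to 5058 CPM. Thrb, which the rule did not use, was at 346.5, 233.7 and 499.8 CPM in wt/wt and 262.1, 407.6 and 308.5 CPM in ko/ko replicates, beside 60.8 to 107 CPM in rods. The cone channel subunit Cngb3 was at 390 ± 104 CPM (SD, n = 6 retinas) in M-opsin cones and at 1.76 ± 0.371 CPM in rods. Cone markers outside the rule were thus present in the members of every retina.

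RNA of other cell types was present in the M-opsin cones. The summed level of all 16 rod genes was 23440 to 31210 CPM in the M-opsin cones of wt/wt and 30520 to 39260 CPM in those of ko/ko retinas, against 83970 to 127600 CPM in rods, 8138 to 18200 CPM in glia and 12090 to 17330 CPM in interneurons. Of 10 bipolar markers, Isl1 and Vsx1 had no UMI in M-opsin cones and the sum was 202 to 381 CPM. Of 10 amacrine markers, Gad1 and Gad2 had none, and of 10 Müller glia markers Sox9 had none and the sum was 1020 to 1618 CPM against at least 52340 CPM in glia. The cells carry running numbers in place of 10x barcodes, so barcodes shared between libraries could not be counted. Total depth was 3463728 to 6563762 UMIs per retina, of which the M-opsin cones held 38152 (ko/ko replicate 1) to 176075 (wt/wt replicate 3), so 3 UMIs, the limit a count of 0 allows, stand for 17.04 to 78.6 CPM in 1 retina. Mitochondrial genes took 4.12% and 5.05% of the M-opsin cone UMIs in batch 1 and 0.958% to 1.40% in batch 2.

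The first comparison asked whether loss of Dram2 changed how many M-opsin cones were recovered. In wt/wt replicates 1 to 3, M-opsin cones made up 0.682%, 0.720% and 1.41% of photoreceptors, and in ko/ko replicates 1 to 3 they made up 0.348%, 0.774% and 0.6252%. The highest value was wt/wt replicate 3 and the lowest ko/ko replicate 1, and the ranges of both genotypes overlapped. The mean was 0.937% ± 0.409 in wt/wt and 0.582% ± 0.216 in ko/ko retinas (SD over 3 retinas), a difference of -0.355 percentage points (two-sided exact permutation test, p = 0.3, adjusted p = 0.9 over 3 shares). With 3 retinas against 3, the smallest p that this test can give is 0.1. Without wt/wt replicate 3, which leaves wt/wt with batch 2 retinas alone, the difference was -0.119 percentage points (exact permutation p = 0.6). Once photoreceptors under 500 UMIs or over 10% mitochondrial UMIs were left out, M-opsin cones were 2.15%, 1.99% and 2.40% in wt/wt and 1.11%, 1.96% and 1.11% in ko/ko replicates, which did not overlap (difference -0.789 percentage points, exact permutation p = 0.1, the smallest possible). That filter kept 28.65% to 51.1% of the photoreceptors of a retina. Over all photoreceptors, within batch 2 the difference was -0.140 and within batch 1, with 1 retina per genotype, -0.784 percentage points. Counts of dissociated cells do not separate fewer cells in the tissue from fewer cells recovered.

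The balance between the cone classes also overlapped. M-opsin cones were 32.4%, 33.3% and 40.2% of all cones in wt/wt and 21.3%, 34.7% and 36.1% in ko/ko retinas, with exact (Clopper-Pearson) 95% intervals that span 14% to 30.2% in ko/ko replicate 1 and 33.5% to 47.2% in wt/wt replicate 3. Intervals cover counting error only. The mean was 35.3% ± 4.24 in wt/wt and 30.7% ± 8.18 in ko/ko retinas (SD over 3 retinas; exact permutation p = 0.6, adjusted p = 0.9), with differences of -4.87 percentage points in batch 2 and -4.08 in batch 1. Without ko/ko replicate 1, the lowest retina, the difference was 0.102 percentage points. Leaving it out makes the batches unequal between genotypes. The difference of -4.08 in batch 1 does not involve ko/ko replicate 1, but rests on 1 retina per genotype, whose exact intervals overlapped. Opn1mw made 17.4%, 18.0% and 17.2% of the opsin UMIs of all cones in wt/wt and 14.2%, 18.9% and 18.7% in ko/ko retinas (difference -0.255 percentage points, exact permutation p = 1.0). This difference was -1.14 within batch 2 and 1.52 within batch 1, and 1.27 percentage points without ko/ko replicate 1.

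**Figure D2:**
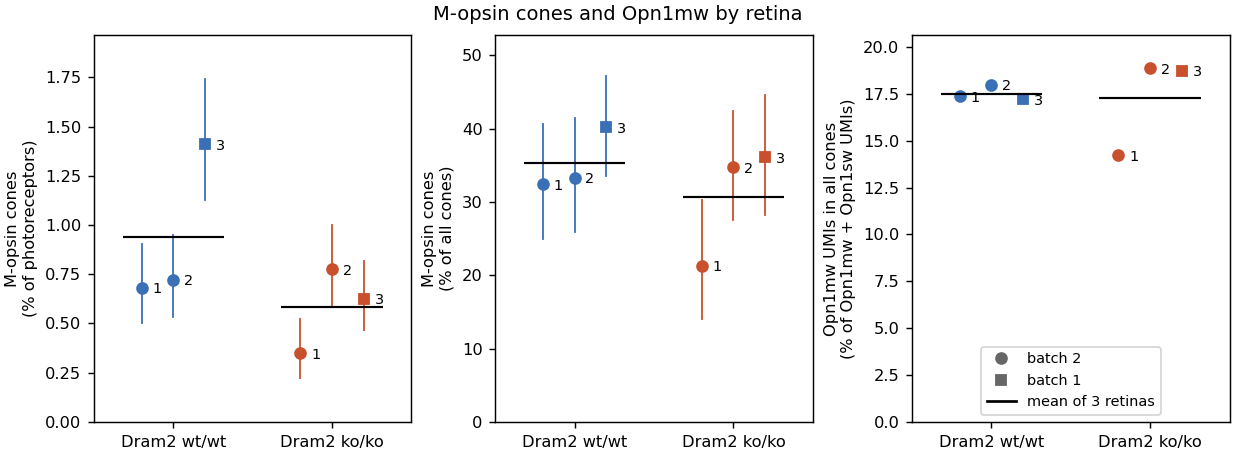
For each retina by genotype, the panels give M-opsin cones in percent of photoreceptors, M-opsin cones in percent of all cones, and Opn1mw in percent of the opsin UMIs of all cones, with 95% exact intervals for the shares of cells, the mean of 3 retinas as a line and the batch as the symbol. The genotypes overlap in each panel, and ko/ko replicate 1 is the lowest retina in all of them.

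M-opsin cones differed from the S-opsin cones of the same retinas in a small set of genes. UMIs were summed per retina and class and compared with edgeR's quasi-likelihood test with the retina as a block, leaving the 6 rule genes out. Of 3679 genes tested, 63 (1.71%) passed an adjusted p of 0.05, 30 (0.815%) higher and 33 (0.897%) lower in M-opsin cones. The number depended on the method, with 24 calls by DESeq2 and 17 without the retina block. Without the count filter 86 of 20716 genes were called, 19 higher and 67 lower, and the log2 differences of the 3679 genes in both fits lay lower by a median shift of -0.12, so values named as without the filter are to be read relative to that shift. The smallest p belonged to Ccdc136, which lies beside Opn1sw, and on the higher side to Gm44532, a noncoding gene beside Nr2f2. The median log2 difference over all tested genes was -0.01. Fold values in this comparison are log2 differences of M-opsin minus S-opsin cones on TMM-scaled counts without the rule genes, while CPM are per total UMIs.

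Ccdc136 was at 310.6, 244.4 and 130.6 CPM in wt/wt and 235.9, 138.9 and 102.8 CPM in ko/ko M-opsin cones. In the S-opsin cones it was at 2007, 2150 and 1352 CPM in wt/wt and 1574, 2016 and 1314 CPM in ko/ko retinas. Each of the 6 retinas was lower in M-opsin cones and the classes did not overlap (log2 difference -3.30 ± 0.11 SE, edgeR adjusted p = 9.5e-184). After thinning to 500 UMIs, 7.21% of M-opsin and 56.3% of S-opsin cones held a UMI, beside 4.72% of glia and 11.8% of interneurons.

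Other genes were nearly confined to the S-opsin cones. Syndig1l was at 5.68 to 26.2 CPM in M-opsin and 242.8 to 337.8 CPM in S-opsin cones (log2 difference -4.44 ± 0.32, adjusted p = 1.7e-41). A930009A15Rik had 1 UMI in all M-opsin cones and 127 in S-opsin cones, a pooled ratio of 66.7 with an exact counting interval from 11.8 to 2654. Socs3, an inhibitor of cytokine signalling, had 3 UMIs against 100 (ratio 17.5, interval 5.82 to 86.3). 5430419D17Rik had 5 UMIs against 143 and the neurotrophin receptor Ngfr 6 against 92, with log2 differences of -3.89 ± 0.42 and -2.94 ± 0.47. The classes did not overlap in any of these 5 genes, and in each retina the S-opsin cones were the higher. These genes, like Ccdc136, had been named for their small p in this comparison, so order and overlap add no separate support. The share of all tested genes without overlap was not counted.

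Of 14 cone genes outside the rule, 12 were tested, 5 were lower and 0 higher (0.897% and 0.815% of all genes), among them Ccdc136, with a median log2 difference of -0.25 beside -0.01 over all genes. Guca1a, the calcium sensor that regulates guanylate cyclase, was at 4050 to 5544 CPM in M-opsin and 5613 to 8209 CPM in S-opsin cones (-0.54 ± 0.05, adjusted p = 2.2e-23). Kcne2, a potassium channel subunit, differed by -0.67 ± 0.10. The cone transducin subunits Gngt2 and Gnb3 differed by only -0.25 ± 0.05 and -0.24 ± 0.05, with overlapping ranges but the same order in all 6 retinas. Gnb2, another G protein beta subunit, was lower by a larger step (-0.81 ± 0.16). The channel genes Cnga3 and Cngb3, the exchanger Slc24a2 and both opsin regulators Thrb and Rxrg did not pass (Thrb 0.16 ± 0.13, adjusted p = 0.79).

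Other genes were among those with the smallest p on the lower side. The methylglyoxal-detoxifying enzyme Glo1 (-0.87 ± 0.11) and the DNA-binding protein Ssbp4 (-0.85 ± 0.13) were lower in all 6 retinas. The complex I assembly factor Ndufaf5 (-0.45 ± 0.09) and the cytochrome oxidase subunit Cox8a (-0.29 ± 0.06) were lower by less. Ndufaf5 lost its call without wt/wt replicate 3 (adjusted p = 0.090).

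On the higher side, Samd7, a transcriptional repressor of photoreceptors, was at 203.1, 53.1 and 90.9 CPM in wt/wt and 52.4, 176.0 and 121.5 CPM in ko/ko M-opsin cones. It was at 4.66 to 43.1 CPM in S-opsin cones, without overlap (2.07 ± 0.31, adjusted p = 7.2e-09). The zinc-finger gene Tshz2 was at 402 to 708 CPM against 263 to 403 CPM (0.75 ± 0.12), and Nxnl2, a thioredoxin-like gene linked to photoreceptor survival, at 276 to 629 CPM against 104 to 224 CPM (0.90 ± 0.15). Gzmm, a serine protease, was higher by 0.57 ± 0.09, the importin Ipo4 by 1.92 ± 0.42 and the pyrophosphatase Ppa1 by 0.62 ± 0.13, none with overlap. All of these were higher in 6 of 6 retinas, but they too were named for their small p in this comparison, so order and overlap add no separate support.

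Among the others with the smallest p, the DNA repair enzyme Smug1 (1.42 ± 0.22) and the glutathione transferase Mgst3 (0.74 ± 0.13) were higher in 5 of 6 retinas. Car8, a carbonic anhydrase-related protein (1.32 ± 0.25), and Rd3l, a relative of the cyclase regulator Rd3 (0.51 ± 0.09), were higher in 6. So were the membrane proteins Itm2c (0.84 ± 0.18) and Fam171b (0.63 ± 0.14), the outer segment cadherin Cdhr1 (0.46 ± 0.10) and phosducin, Pdc (0.26 ± 0.06). Tnfsf13 was higher by 0.81 ± 0.18, but its locus overlaps that of Tnfsfm13, so the split of reads between them is uncertain. Without wt/wt replicate 3 the calls of Car8 and Tnfsf13 were lost (adjusted p = 0.090 and 0.13).

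**Figure D3:**
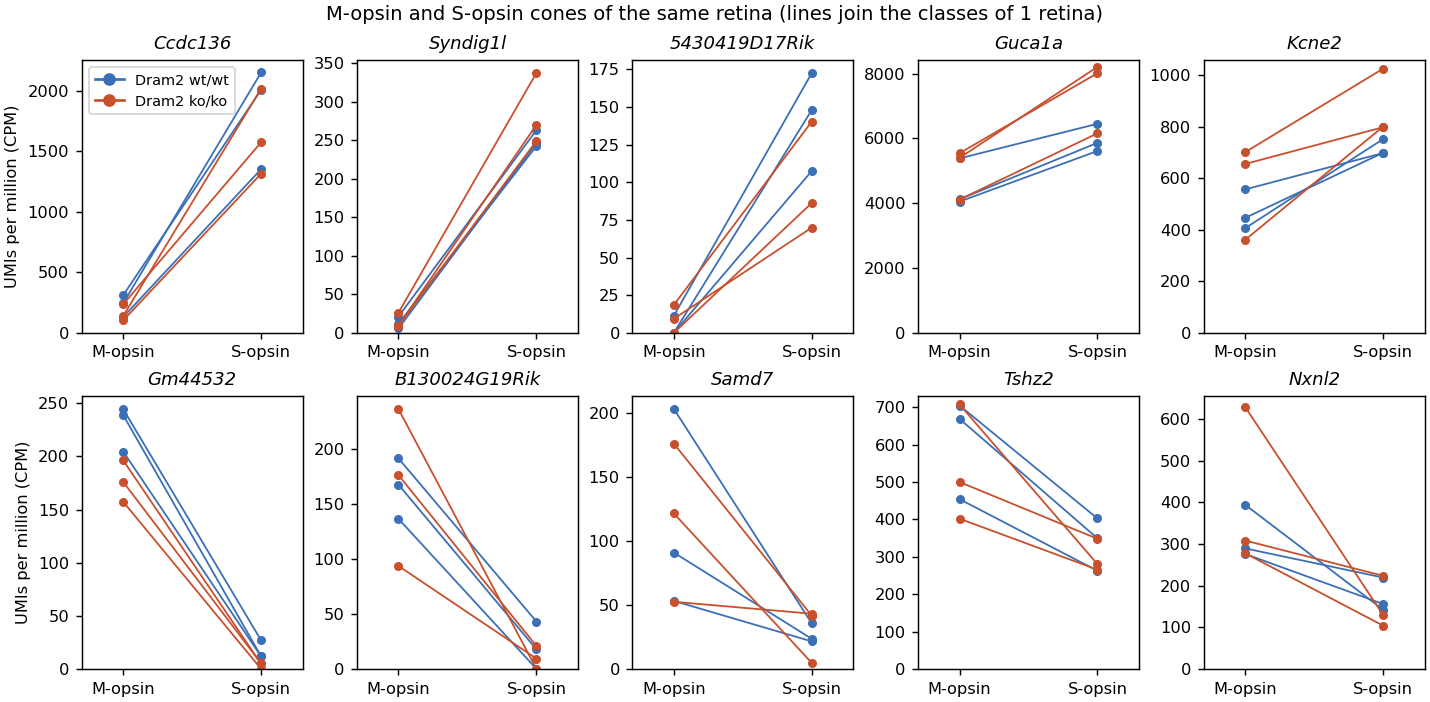
CPM of 10 genes in the M-opsin and S-opsin cones, with a line joining both classes of 1 retina, wt/wt in blue and ko/ko in orange. The upper 5 genes are lower and the lower 5 higher in the M-opsin cones of all 6 retinas. The largest log2 differences among them belong to Syndig1l, Gm44532 and 5430419D17Rik.

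The position of the leading genes on the chromosomes was examined after their values were seen. Genes with at least 10 UMIs in cones and within 250 kb of Opn1sw, Opn1mw and Nr2f2, measured between gene ends, were looked at. Coordinates are GRCm38, GENCODE M21. Ccdc136 (chromosome 6, 29396309 to 29426994, plus strand) begins 7.84 kb from the outermost annotated start of Opn1sw (29376671 to 29388468, minus strand) and 15.8 kb from the RefSeq start that the window above adjoins, and the 2 genes do not overlap. The miRNA gene Gm26220 (29396617 to 29396705) lies within Ccdc136 and cannot be told apart from it by these counts. It had 20 UMIs in M-opsin and 232 in S-opsin cones (log2 difference -2.62). The other 6 genes of that neighbourhood did not share the contrast, with pooled log2 ratios between -0.25 for Calu and 0.30 for Rbm28, although Impdh1 passed in the fit without the count filter (log2 difference -0.36, edgeR adjusted p = 0.0071, beside the shift of -0.12 over all genes). Around Opn1mw on chromosome X, no neighbour passed without the count filter, and only the neighbour with the highest pooled log2 ratio is named. This was Ikbkg at 1.27 (interval 0.22 to 2.35, edgeR adjusted p = 0.99).

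Around Nr2f2 on chromosome 7, 5 genes had at least 10 UMIs in cones, Nr2f2 included, and all 5 were higher in M-opsin cones. Nr2f2 (70351944 to 70366735, minus strand), the nuclear receptor COUP-TFII, had 9, 4 and 15 UMIs in wt/wt and 1, 2 and 4 in ko/ko M-opsin cones, against 0 to 2 in any S-opsin sum. It fell under the count filter and was tested without it (log2 difference 3.04 ± 0.52, edgeR adjusted p = 4.6e-06). Gm44532, a long noncoding RNA gene at 70420915 to 70453222, was at 238.9, 244.4 and 204.5 CPM in wt/wt and 157.3, 176.0 and 196.3 CPM in ko/ko M-opsin cones. In S-opsin cones it was at 0 to 26.9 CPM (4.14 ± 0.31, adjusted p = 3.1e-36). B130024G19Rik (70364910 to 70489972, plus strand) was at 93.5 to 235.9 CPM against 0 to 43.0 CPM (3.30 ± 0.32, adjusted p = 9.2e-22). Gm28258 had 19 UMIs against 3 and Gm44812 16 against 1, both past the threshold without the filter (adjusted p = 0.0060 and 0.017). Gm35842, with 7 UMIs against 0, all of them in wt/wt retinas, fell under the minimum of 10, was added after its values were seen and did not pass (edgeR adjusted p = 0.99). B130024G19Rik overlaps Nr2f2, Gm28258 and Gm44532 on the opposite strand, so reads may be divided between them uncertainly. In rods, Gm44532 was at 31.0 ± 9.86 CPM and Nr2f2 at 11.3 ± 2.28 CPM.

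**Figure D4:**
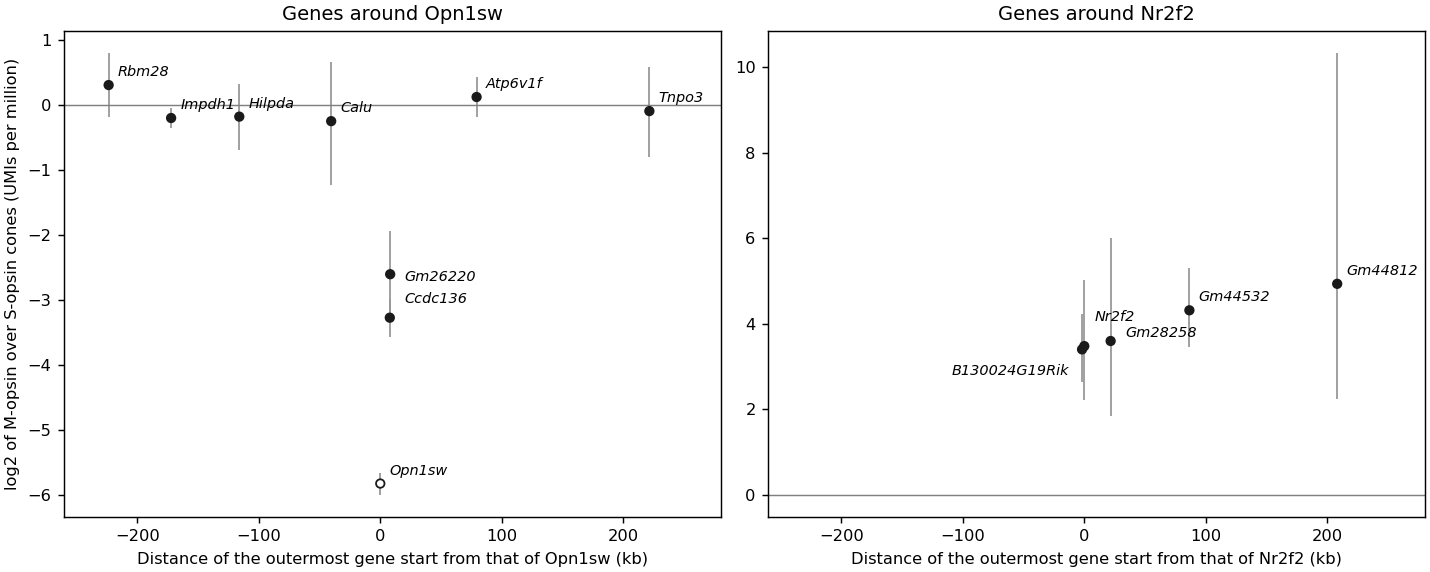
The log2 ratio of M-opsin over S-opsin cones (CPM, all retinas pooled, with 95% exact counting intervals) is plotted against the distance of each gene's outermost start from that of Opn1sw or Nr2f2 in kb, with the rule gene Opn1sw as an open point. Ccdc136 and Gm26220 sit at -3.28 and -2.61 beside Opn1sw while the other neighbours lie near 0, and all 5 genes drawn around Nr2f2 lie above 3.

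Along the Opn1mw share of a cone's own opsin UMIs, these genes changed at different points. Cones were divided into 7 bins of 50 to 254 cells, each drawn from all 6 retinas, and the values are pooled UMIs with exact Poisson intervals and no test. Ccdc136 was at 2071 CPM (1908 to 2244) in cones with no Opn1mw and at 1777, 1576 and 1161 CPM in the next bins up to under 50%. It was at 471 CPM (347 to 625) between 50% and under 90%, and at 102 CPM (72.5 to 139) in cones with Opn1mw alone. The pooled level of Ccdc136 was thus intermediate in the bins with mixed opsins. Pooled values do not show whether single cells were intermediate, and this was not tested. Nr2f2 and its 5 neighbours, Gm35842 included, summed to 3.83 to 83.6 CPM in the 4 bins under 50% and to 402, 454 and 523 CPM in the 3 bins of M-opsin cones. The interval was 38.2 to 159 CPM in the last bin under 50% and 289 to 546 CPM in the first above. The bins rest on the opsin UMIs that split the classes, and these neighbours were picked after their values were seen. The step at 50% is therefore the class difference again, and the intervals cover counting error only.

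Thrb divided the cones elsewhere. It was at 111 CPM (75.7 to 156) in cones with no Opn1mw UMI and at 341 to 400 CPM in all 6 bins with some Opn1mw, whether or not Opn1mw led. Tshz2 climbed from 107 CPM with no Opn1mw through 295 and 408 CPM to 549 CPM in cones with Opn1mw alone. Syndig1l was highest between 0 and 5% Opn1mw at 345 CPM and was at 2.61 CPM, 1 UMI in 206 cells, with Opn1mw alone. Arr3, a rule gene shown as a description, went from 5673 to 12470 CPM over the same bins.

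**Figure D5:**
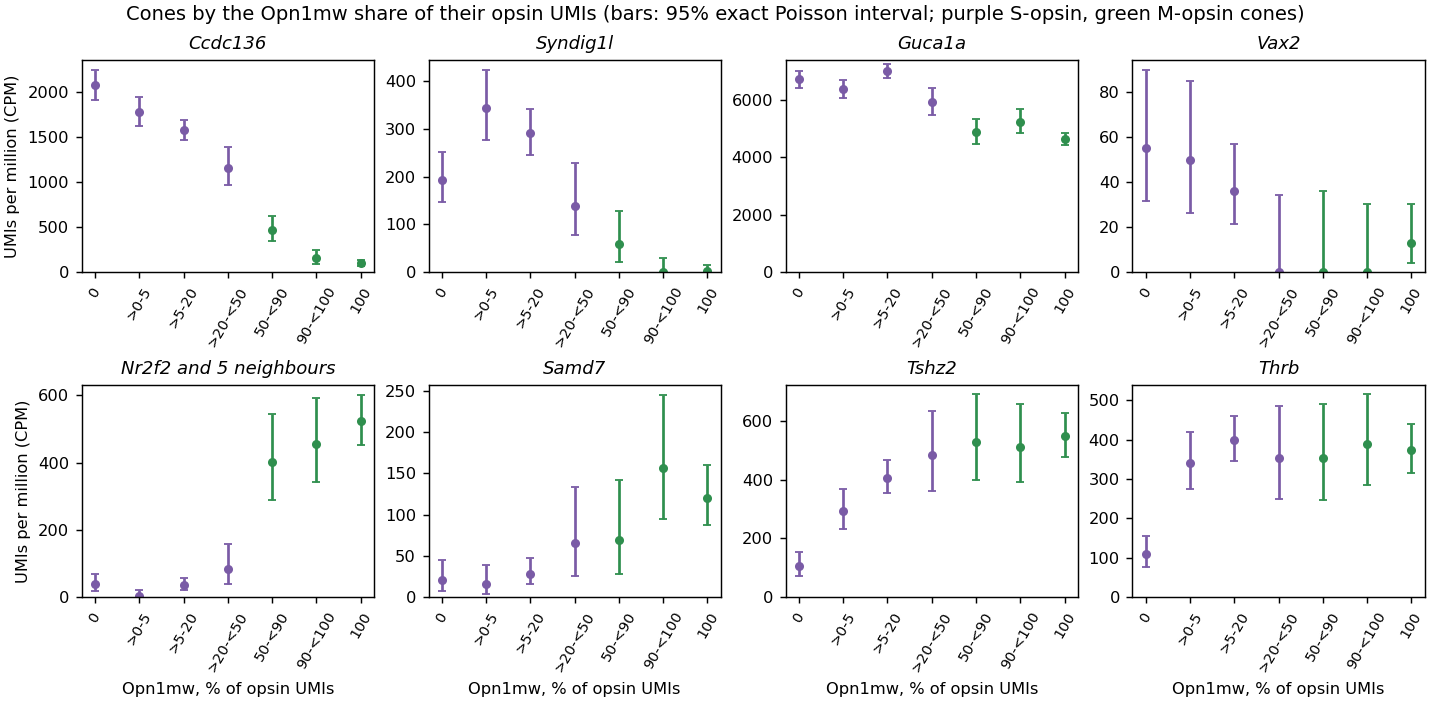
CPM of 7 genes and of the sum of Nr2f2 and 5 neighbours in cones binned by the percent of their opsin UMIs that are Opn1mw, pooled over retinas with 95% exact Poisson intervals, S-opsin cones purple and M-opsin cones green. Ccdc136 declines in steps from 2071 to 102, the Nr2f2 group is at 83.6 or less below 50% and at 402 or more above, and Thrb is low in the first bin alone.

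Regulators and dorsoventral genes were mostly too sparse to test between the cone classes. Of 16 opsin and cone fate regulators, 9 were tested and 0 passed, with a median log2 difference of -0.05. Of 14 dorsoventral genes, 0 passed the count filter. Without the filter, the ventral factor Vax2 had 5 UMIs in M-opsin and 47 in S-opsin cones (-2.36 ± 0.54, adjusted p = 0.0054), and the dorsal genes Efnb1 (8 against 2 summed UMIs at 2.21 ± 1.24) and Tbx2 did not pass (adjusted p = 0.99 for both).

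In the other lists, 0 to 2 genes each passed between the cone classes, beside 0.815% of all genes higher and 0.897% lower. Of 16 rod genes, 15 were tested, 1 was higher and 1, Sag, the rod arrestin, was lower (-0.41 ± 0.05). The median over the rod genes was 0.10. Of 15 shared phototransduction genes, 14 were tested and only Pdc passed. Of 20 synaptic terminal genes, 17 were tested and only Stx3, a syntaxin of ribbon synapses, was higher (0.37 ± 0.10), a call lost without wt/wt replicate 3 (adjusted p = 0.23). Of 25 glycolysis, lactate and glycogen genes, 20 were tested and Hk2 and Tpi1 were lower. Each of these 2 calls was lost without some single retina (highest adjusted p = 0.20 for Hk2 without wt/wt replicate 3 and 0.25 for Tpi1 without ko/ko replicate 2). Of 30 autophagy and lysosome genes, 15 were tested and the protease Ctsb was higher (0.46 ± 0.11), which was lost without ko/ko replicate 3 (adjusted p = 0.095). Of 10 tested mitochondrial-genome genes and 8 tested stress and cell death genes, 0 passed.

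Set against rods, M-opsin cones differed in many more genes. Of 12029 genes tested with the same model, leaving out the rule genes and the 16 rod genes, 2955 (24.6%) passed, 1239 (10.3%) higher and 1716 (14.3%) lower in M-opsin cones. RLE factors kept more genes lower, with 1409 higher and 1482 lower, while the split turned with other methods, at 1875 higher and 1309 lower with limma-voom and 1186 and 851 with DESeq2. The median log2 difference over all tested genes was -0.19, with -0.11, 0.01 and -0.13 under these alternatives, and single genes are to be read relative to it. Rods held a median of 422 UMIs per cell, so background RNA weighs differently in the 2 classes, and its part in these differences was not tested.

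Most cone genes were far above rods. Of the 14 cone genes outside the rule, all 14 were tested, 11 were higher and 2 lower, with a median log2 difference of 5.01, beside 10.3% of all genes higher, 14.3% lower and a median of -0.19. Gngt2 was at 5613 to 8383 CPM in M-opsin cones and 85.0 to 162 CPM in rods (5.70 ± 0.12), and Gnb3 differed by 4.32 ± 0.11. The channel subunits Cnga3 (7.53 ± 0.46) and Cngb3 (7.47 ± 0.23), the exchanger Slc24a2 (6.20 ± 0.30) and glycogen phosphorylase Pygm (4.19 ± 0.18) were likewise far above rods. Gucy2f (-3.10 ± 0.42) and Mpped2 (-2.08 ± 0.24) were lower in M-opsin cones than in rods, against the name of the list. Guca1a did not pass (-0.14 ± 0.11, adjusted p = 0.38), and passed without the count filter (-0.24, adjusted p = 0.010), where the 12029 genes of both fits lay lower by a median shift of -0.10.

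Outside the lists, the actin-binding thymosin Tmsb10 was at 757 to 2123 CPM in M-opsin cones and 2.47 to 10.5 CPM in rods (7.66 ± 0.15). Its near copy Gm9844 differed by 7.18 ± 0.16, and reads may be shared between the 2 genes. The beta-1 adrenergic receptor Adrb1 was at 478 to 565 CPM against 1.59 to 3.66 CPM (7.42 ± 0.20). Tshz2 differed by 7.30 ± 0.20, the acyl-CoA-binding protein Acbd6 by 5.91 ± 0.16, Kcne2 by 5.76 ± 0.17, the kinase anchor Sphkap by 5.62 ± 0.17 and clathrin light chain Cltb by 4.83 ± 0.14.

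Genes lower than in rods included shared parts of phototransduction. Of 15 shared phototransduction genes, all 15 were tested, 12 were lower and 0 higher, with a median of -0.94, beside 14.3% of all genes lower, 10.3% higher and a median of -0.19. Guca1b, the second cyclase-activating calcium sensor, was at 340 to 648 CPM in M-opsin cones and 2694 to 3379 CPM in rods (-2.97 ± 0.13). Rdh12, a retinal reductase, differed by -2.20 ± 0.14, the disc rim protein Prph2 by -1.62 ± 0.11 and Pdc by -1.12 ± 0.11. The repressor Samd11 (-3.04 ± 0.15), the kinase Sgk1 (-2.95 ± 0.15), the axoneme protein Rp1 (-2.17 ± 0.13), the actin bundler Fscn2 (-2.45 ± 0.16), Susd3 (-2.82 ± 0.17) and Pcmtd2 (-2.25 ± 0.14) were among the 10 with the smallest p.

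Globin RNA marked rods and not M-opsin cones. Hbb-bs was at 23.9 to 68.2 CPM in the M-opsin cones and 210 to 1796 CPM in the rods of the same retinas (-4.84 ± 0.21). Hba-a1 and Hba-a2 had 1 UMI each in all 315 M-opsin cones and 2926 and 2970 in rods, and Hbb-bt 2 against 1840. The summed level of the 4 globin genes was 302 to 2500 CPM in rods, 23.9 to 85.2 CPM in M-opsin cones, 16.1 to 74.5 CPM in S-opsin cones, 26.8 to 80.4 CPM in glia and 34.5 to 138 CPM in interneurons. Rods were thus the class that stood apart in globin RNA.

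Some regulators and synaptic terminal genes also differed between M-opsin cones and rods, in counts that stand beside 10.3% of all genes higher and 14.3% lower. Of 16 opsin and cone fate regulators, 12 were tested, 5 were higher and 3 lower, with a median of 0.15. Rxrg (6.18 ± 0.42), Sall3 (6.35 ± 0.52), Thrb (1.73 ± 0.14), Nr2f2 (2.03 ± 0.36) and Prdm1 (1.70 ± 0.45) were higher, and Mef2c (-2.48 ± 0.15), Rorb (-1.77 ± 0.14) and Otx2 (-1.32 ± 0.22) were lower. The call of Prdm1 was lost without wt/wt replicate 2 (edgeR adjusted p = 0.11). Of 14 dorsoventral genes, 2 were tested and Vax2 was lower, at 0 to 26.2 CPM in M-opsin cones and 98.1 to 161 CPM in rods (-4.02 ± 0.39). Of 20 synaptic terminal genes, 19 were tested, 9 were higher and 3 lower, with a median of 0.25. The ribbon synapse complexin Cplx3 was at 691 to 1028 CPM against 41.9 to 97.6 CPM (3.60 ± 0.12), while its relative Cplx4 was lower (-1.27 ± 0.12). Syp (0.91 ± 0.11) and Pcdh15 (1.60 ± 0.13) were higher.

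The counts of the following lists stand beside the same shares of all genes. Of genes of the mitochondrial genome, 9 of 12 tested were higher and 0 lower, with a median of 0.78, led by mt-Co1 (1.98 ± 0.11). The share of mitochondrial UMIs differed between batches in both classes, and within each retina it was higher in M-opsin cones (0.958% to 5.05%) than in rods (0.307% to 3.02%). Of 25 glycolysis, lactate and glycogen genes, 24 were tested, 6 were higher and 8 lower, with a median of -0.21. Brain creatine kinase Ckb (2.06 ± 0.11) and the muscle-type phosphofructokinase Pfkm (2.02 ± 0.45) were higher, while the liver-type Pfkl (-1.15 ± 0.17), the glucose transporter Slc2a1 (-1.09 ± 0.25) and the lactate transporter Slc16a3 (-2.58 ± 0.42) were lower. Of 30 autophagy and lysosome genes, 28 were tested, with a median of -0.01, and 8 were higher, such as the proton pump subunits Atp6v1a (1.45 ± 0.17) and Atp6v0c (1.15 ± 0.14) and the protease Ctsd (0.89 ± 0.15), and 2 were lower, Ctsl (-1.02 ± 0.24) and Wipi2 (-0.88 ± 0.30), the latter lost without ko/ko replicate 3 (edgeR adjusted p = 0.060). Of 22 stress and cell death genes, 18 were tested, 0 were higher and 5 lower with a median of -0.49, among them Bcl2 (-1.90 ± 0.29), Atf4 (-1.21 ± 0.14) and Hsp90aa1 (-1.14 ± 0.13). Of 8 tested Müller glia markers, Clu was higher (1.76 ± 0.14) and Glul and Rlbp1 were lower, calls that were lost without ko/ko replicate 3 and wt/wt replicate 3, respectively (edgeR adjusted p = 0.051 and 0.054). Of 8 tested bipolar markers, Prkca was lower (-3.20 ± 0.21), and 0 of 3 amacrine, 3 RPE and 4 microglia and endothelial markers tested passed.

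Within the M-opsin cones, no gene passed the test between genotypes. edgeR compared the summed UMIs of 3 ko/ko and 3 wt/wt retinas over 1998 genes and called 0 (0%). An unadjusted p under 0.05 was found for 29 genes (1.45%), where 5% would be found with no change. limma-voom and DESeq2 also called 0, and found 37 and 3 under an unadjusted p of 0.05. With batch as a covariate, edgeR and limma-voom called 0, with 58 and 82 genes under that unadjusted p. The lowest adjusted p was 0.999. Opn1mw differed by 0.17 ± 0.23 (log2, ko/ko minus wt/wt), Arr3 by -0.38 ± 0.24, Gnat2 by -0.07 ± 0.23 and Thrb by -0.16 ± 0.31, and the rule bounds the first 3 in both genotypes. Thrb turned to 0.22 without wt/wt replicate 3 and Gnat2 to 0.04 without ko/ko replicate 1.

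Dram2 itself was sparse in M-opsin cones and fell under the filter. It had 2, 4 and 11 UMIs in wt/wt and 0, 1 and 8 in ko/ko retinas, so both genotypes held UMIs and their ranges overlapped. Counting near the 3′ end lies outside the deleted part, so these counts do not check the genotype.

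The 5 genes with the smallest p in each direction were chosen for their p, and none was near the adjusted threshold. Timm44, of the mitochondrial import motor, was at 155.3, 148.7 and 119.3 CPM in wt/wt and 78.6, 64.8 and 46.8 CPM in ko/ko retinas (-1.21 ± 0.43). Usp33 (-1.08 ± 0.39), Mdm1 (-0.98 ± 0.36), Top2b (-0.95 ± 0.38) and Camta1 (-0.80 ± 0.33) followed. Rd3, which restrains guanylate cyclase, was at 334.5, 318.7 and 352.1 CPM in wt/wt and 550.4, 435.4 and 551.6 CPM in ko/ko retinas (0.57 ± 0.24). Mrps10 (1.03 ± 0.45), Actr10 (0.97 ± 0.41), Me1 (0.91 ± 0.38) and Alpl (0.83 ± 0.35) were the others, all with an edgeR adjusted p of 0.999.

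By list, 0 of 10 tested cone genes, 13 shared phototransduction genes, 16 synaptic genes, 18 glycolysis genes, 9 mitochondrial-genome genes, 11 autophagy and lysosome genes and 3 stress genes passed. Their median differences were 0.04, 0.15, -0.06, 0.14, -0.19, 0.32 and 0.19, beside 0.01 over all genes. The median of 15 tested rod genes was 0.34, and 0 passed. The summed level of the rod genes in M-opsin cones was 23440 to 31210 CPM in wt/wt and 30520 to 39260 CPM in ko/ko retinas, ranges that overlapped. The part of rod RNA in the other differences was not tested.

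Whether the genotype difference in M-opsin cones departed from that in other photoreceptors was tested directly. The interaction of class and genotype passed for 0 of 3679 genes (0%) against S-opsin cones, with 167 at an unadjusted p under 0.05. Against rods it passed for 0 of 12029 (0%), with 488 at an unadjusted p under 0.05. limma-voom and DESeq2 called 0 in both, and an unadjusted p under 0.05 was found for 189 and 22 genes against S-opsin cones and for 570 and 147 against rods. Among the genes with the smallest p against S-opsin cones were Etfb (-1.59 ± 0.49), Bag6 (-1.46 ± 0.46) and Aplp1 (-0.76 ± 0.23) on the lower side and Smim19 (1.62 ± 0.52) and Ptp4a3 (0.66 ± 0.23) on the higher side. Against rods they were Dnal1, Cdk5r1 and Rps18 on the lower side and Tab2, Otor and Eps8l1 on the higher side, and all but Rps18 rest on 4 to 26 UMIs in the M-opsin cones.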

How the data were processed

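The authors profiled 6 retinas, 3 of each Dram2 genotype, with the 10x Genomics 3′ v2 kit. Per the labels, Cell Ranger 3.1.0 and GRCm38 were used, and the authors deposited raw UMI counts that are not normalized for 46375 cells, with a table of sample, batch and cell type from Louvain clusters in Seurat. All columns of the count table were mapped to a retina (0 unused). A protocol label names 1 sample per genotype and the design text names choroid, whereas each sample label names retina, which was followed.

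Gene identifiers were named with GENCODE M21. UMIs were summed per retina and class and tested with edgeR 4.0.16 (glmQLFit and glmQLFTest, TMM factors, filterByExpr, Benjamini-Hochberg adjustment over all genes tested, threshold 0.05), with the retina as a block between classes. limma 3.58.1 (voom) and DESeq2 1.42.0 were alternatives, as were RLE factors, no filter, batch as a covariate, the replicate number as a block, a fold criterion, stricter cells, other opsin rules and leaving out each retina. The fits were also run on simulated data with known changes, and the size of change that they could recover is not given here. Shares were compared by exact permutation over retinas. No doublet caller was run: the 5% of cells with most UMIs in each class and retina were left out as an alternative. Depth was 38152 to 176075 UMIs of M-opsin cones per retina. Between retinas, chi-square per degree of freedom was at least 2.20, so none looked like another deposited again, which does not show that they came from separate animals. CPM are counts per 1000000 UMIs of a class in a retina, rule genes included. Motifs were searched in RefSeq windows (GRCm38.p6).

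Named genes are those of 17 fixed lists and the protein-coding genes with the smallest p in each direction (15 for M-opsin against S-opsin cones, 10 against rods, 5 for genotype and 3 for each interaction), plus neighbours on the chromosome. The members and lists were chosen with earlier results of these data known. Some genes are not reported here.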

Additional observations from a re-analysis of the deposited data

Results flagged for a closer look

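Within-retina differences of class, on log2 CPM, were screened for a retina far from the other 5 in 87 sets of 6 values, of which chance alone would single out about 1 in 20. The difference of M-opsin minus S-opsin cones in Glo1 was -0.16 in ko/ko replicate 1 and -1.04 to -0.75 in the other 5 retinas. In Ssbp4 it was -0.35 in ko/ko replicate 2 and -1.03 to -0.83 in the others. Between M-opsin cones and rods, Tmsb10 differed by 6.65 in wt/wt replicate 3 and by 8.13 to 8.91 in the others, and Cplx3 by 3.32 in wt/wt replicate 3 and by 4.03 to 4.08 in the others.

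Outside the photoreceptors, 9 of the 2083 cells typed as interneurons met the cone gene rule with Opn1mw at or above Opn1sw, in 5 of 6 retinas. In all, 37 interneurons met the cone gene rule, at a median of 3513 UMIs beside 1883 in the M-opsin cones. They were not counted among the M-opsin cones and stayed among the interneurons.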

How the results depend on the processing

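Between M-opsin and S-opsin cones, 63 genes were called. A fold above 2 beside the adjusted p left 18, DESeq2 called 24, the fit with no replicate block for the retina 17 and the wt/wt retinas alone 39, and leaving out each retina gave 53 to 69. Against rods, 2955 genes were called, 1952 with a fold above 2, 1781 in the wt/wt retinas alone and 2543 to 2870 without 1 retina. Between genotypes 0 genes were called under every setting run. With the replicate number as a block (replicate block) edgeR also called 0, with 62 genes at an unadjusted p under 0.05. Same-numbered retinas of the genotypes correlated at -0.04, 0.28 and 0.33 in their deviations over 1998 genes, and differently numbered ones at -0.44 to 0.28. The value 0.33 belongs to replicate 3, the batch 1 retinas. These values do not settle whether the numbers pair the retinas, and the main fit did not pair them. The interaction with S-opsin cones called 1 gene, Gnb1, once the 5% of cells with most UMIs were left out, and the cause was not tested.

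The share of M-opsin cones among photoreceptors differed by -0.784 percentage points within batch 1, by -0.789 once cells under 500 UMIs or over 10% mitochondrial UMIs were left out (exact permutation p = 0.1), and by -0.482 to -0.119 without 1 retina, the latter without wt/wt replicate 3. The share among cones ranged from -7.31 to 0.102 without 1 retina, the latter without ko/ko replicate 1. The Opn1mw share of opsin UMIs turned to 0.373 without the 5% of cells with most UMIs, to 1.52 within batch 1 and to 1.27 without ko/ko replicate 1, with -1.05 as the lowest value without 1 retina. In the genotype fit, Gnat2 ranged from -0.18 to 0.0422 and Thrb from -0.37 to 0.22 without 1 retina. Of 240 values of named genes between the cone classes without 1 retina, 15 lost the call, over 8 genes, and of 478 under other settings 59 did, over 23 genes. Against rods, 4 of 354 values without 1 retina and 10 of 767 under other settings lost the call. Leaving out ties and a 2 times margin between the opsins were not run for the Opn1mw share, which is taken over all cones. With 23 to 84 M-opsin cones per retina, 1998 genes had enough UMIs for the test between genotypes.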
